A study of Rattus norvegicus with 6 samples.

Results

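The 9 genes described here encode the proteins that form a fibrin clot and the system that dissolves it: the fibrinogen chains Fga, Fgb and Fgg, the factor XIII carrier subunit F13b, plasminogen (Plg), its inhibitor alpha-2-antiplasmin (Serpinf2), the activators Plau (urokinase) and Plat (tissue plasminogen activator), and the urokinase receptor Plaur. They were chosen as a named set, and their probes were found by matching the RefSeq accession on the array to the rat gene. Probes were found for 8 of the 9 genes, 9 probes in all among 30367 on the array. No probe carried an accession that the gene table pairs with F13b, so F13b was not analysed here. The fibrosis group was 3 rat livers with hepatic fibrosis after bile duct ligation (surgical blockage of bile flow), and the normal group was 3 normal rat livers, with 1 array for each rat. Strain, age, sex and the time since ligation are not given in the sources used here, nor is a sham operation for the normal rats.

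Fibrinogen is made and secreted by hepatocytes as a molecule built from alpha, beta and gamma chains. Thrombin cuts it to fibrin, and factor XIII then crosslinks the fibrin. Plasminogen, also a hepatocyte product, is turned into the protease plasmin by urokinase or tissue plasminogen activator, and plasmin dissolves fibrin and also acts on matrix proteins. In the liver the activators are known mainly from cells other than hepatocytes, and the system has been studied in scarring for its part in matrix turnover.

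Whole liver tissue was measured, so fewer cells of a type and less RNA per cell cannot be told apart. The 75th percentile of the processed signal ran from 4840 to 6401 on the fibrosis arrays and from 3755 to 4386 on the normal arrays, and 68.8% to 78.0% of spots were well above background on the fibrosis arrays, against 67.2% to 70.0% on the normal arrays. All arrays shared 1 slide and 1 scan. The first row of the slide carried fibrosis array 1 together with all 3 normal arrays, and fibrosis arrays 2 and 3 were in the second row. Pearson correlations across 19731 probes, which are not independent replicates, ran from 0.931 to 0.964 among fibrosis arrays, from 0.982 to 0.989 among normal arrays and from 0.890 to 0.927 between the groups. All 10 hepatocyte markers were well above background on all 6 arrays. With 3 arrays a group the precision is limited. The p-values set each difference between groups against the spread among rats, for which limma also draws on the other probes tested.

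The plasminogen activators rose in fibrotic liver, while the hepatocyte-made substrates and the inhibitor did not pass the test. Plat was 14.7-fold higher and Plau 3.89-fold higher in fibrosis. The fibrinogen chains, Plg and Serpinf2 had log2 differences between -0.75 and -0.25. Of the 8 genes, each read from its brightest probe, 2 were called higher, beside 12.4% of all 19731 probes tested, and 0 were called lower, beside 6.79% (in either direction 2, beside 19.1%; limma, Benjamini-Hochberg adjusted p under 0.05 over all probes). With 1 probe a gene over all named genes, 1720 of 10864 were called higher and 991 lower. The dimmer of 2 Plaur probes, which does not stand for its gene here, was also called higher (limma adjusted p = 0.0153). At an unadjusted p under 0.05, 2 of the 8 genes were higher and 3 lower. The groups did not overlap for 7 of the 9 probes, beside 38.4% of all probes. Among the 7, the dimmer Plaur probe entered the test only through the fibrosis arrays. The fibrinogen chains are also among them, though their groups overlapped before scaling. For Fgb the highest fibrosis array minus the lowest normal array was only -0.0022. The median difference was -0.47 over the 8 genes, -0.07 over all named genes tested and -0.10 over all probes. Of all probes called, 64.6% were called higher, but 35.8% with the array median and 88.6% with E1A control probes as the scale.

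**Figure D1:**
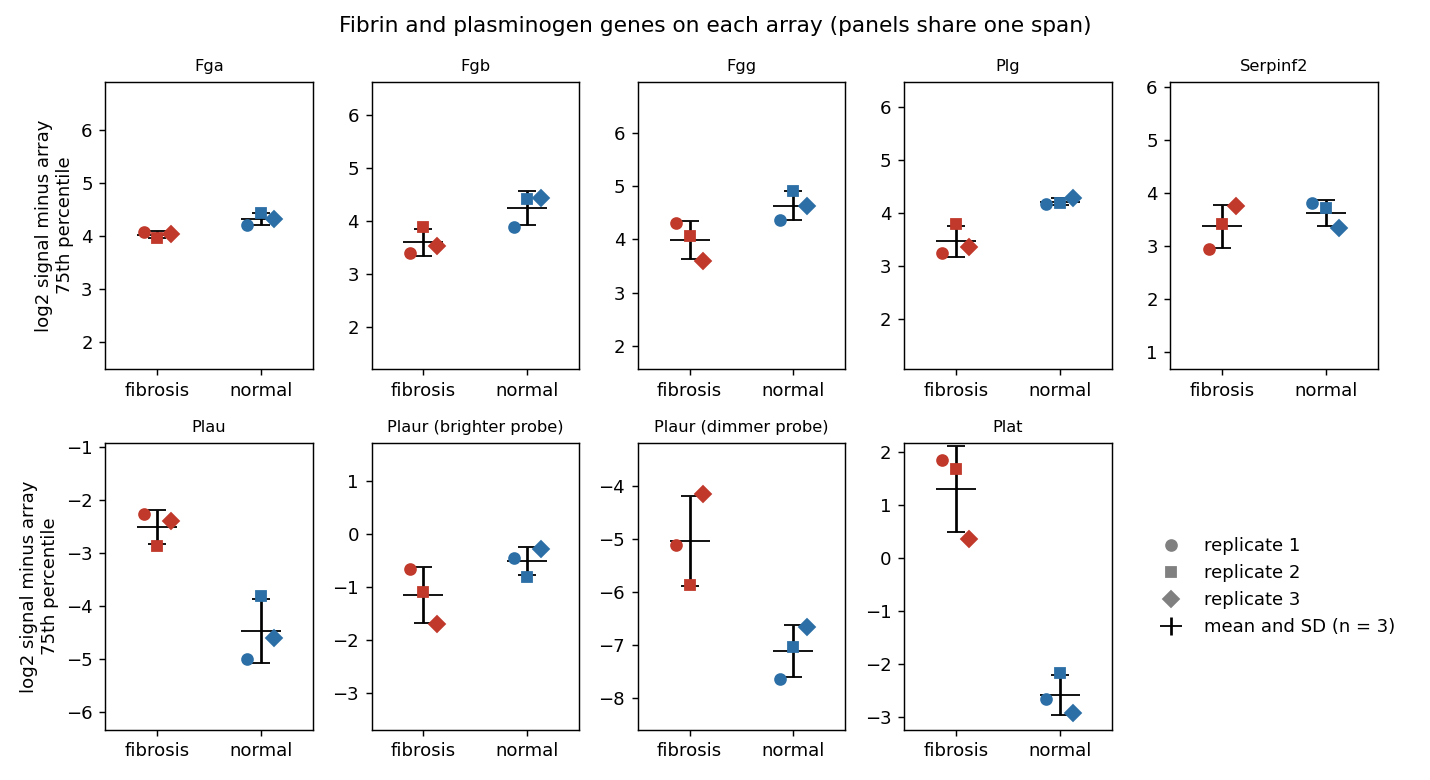
Log2 level (processed signal minus the array's 75th percentile, y axis) of each member probe on the 3 fibrosis arrays (left) and the 3 normal arrays (right), with the mean and SD; every panel spans the same number of log2 units. Plat and Plau lie higher on every fibrosis array, and the fibrinogen chains and Plg lie slightly lower.

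The fibrinogen chains lay close together in both groups and were lower in fibrosis by a margin that did not pass. Levels below are log2 signals minus the array's 75th percentile, so a level of 4 is 4 log2 units above that point. Fga, the alpha chain, had levels of 4.08, 3.95 and 4.03 on the fibrosis arrays, against 4.20, 4.43 and 4.32 on the normal arrays. Fgb, the beta chain, had levels of 3.4, 3.89 and 3.53 on the fibrosis arrays, against 3.89, 4.42 and 4.44 on the normal arrays. Fgg, the gamma chain, had levels of 4.31, 4.06 and 3.60 on the fibrosis arrays, against 4.36, 4.92 and 4.63 on the normal arrays. In each chain every fibrosis array was below every normal array, but only just: the highest fibrosis array minus the lowest normal array was -0.13 for Fga, -0.0022 for Fgb and -0.06 for Fgg. Fga was the steadiest, with an SD of 0.06 among fibrosis arrays and 0.11 among normal arrays (n = 3 each). Most spots of the chains were marked by the scanner software as non-uniform or outlying. On the fibrosis arrays these were 5 of 6 for Fga and 4 of 6 for each of Fgb and Fgg. On the normal arrays all 6 spots of each chain were marked.

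The log2 difference, fibrosis minus normal, was -0.30 ± 0.22 (SE) for Fga, with a 95% interval of -0.81 to 0.20 (limma adjusted p = 0.395). It was -0.65 ± 0.27 for Fgb, with an interval of -1.26 to -0.03 (limma adjusted p = 0.139). For Fgg it was -0.65 ± 0.28, with an interval of -1.29 to -0.0011 (limma adjusted p = 0.155). None of the chains passed, and the intervals of Fgb and Fgg reach values below -1.2. The scale set the size and, for Fga, the sign: with the array median Fgb was -0.96 and Fgg -0.97 (limma adjusted p = 0.0341 for each), with quantile normalization they were -0.14 and -0.18, and Fga was then 0.20. Before scaling the groups overlapped, with Fga signals of 107998, 74894 and 83488 on the fibrosis arrays, against 72034.5, 94578.5 and 75068 on the normal arrays.

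Fgg, Fga and Fgb follow one another on chromosome 2 in the GRCr8 gene order. The nearest flanking genes with a tested probe were Lrat (a retinoid enzyme of stellate cells) at -0.11 ± 0.29 and Plrg1 (a splicing protein) at -0.17 ± 0.37, and neither passed (limma adjusted p = 0.834 and 0.794). The promoters of the 3 chains and of Plg are shown as those of the hepatocyte-made clot protein and protease precursor, and that of Plau because it rose. Each covers 250 bases before to 50 bases after the gene start, from RefSeq (GRCr8), written 5′ to 3′ on the gene's strand. Capitals mark the motifs searched on both strands: CTGGGAA (the IL-6 response motif known from fibrinogen genes), and TGANTCA (AP-1). The motifs were chosen with the sequences in view.
Fga promoter, chr2:170671919-170672218 (+ strand): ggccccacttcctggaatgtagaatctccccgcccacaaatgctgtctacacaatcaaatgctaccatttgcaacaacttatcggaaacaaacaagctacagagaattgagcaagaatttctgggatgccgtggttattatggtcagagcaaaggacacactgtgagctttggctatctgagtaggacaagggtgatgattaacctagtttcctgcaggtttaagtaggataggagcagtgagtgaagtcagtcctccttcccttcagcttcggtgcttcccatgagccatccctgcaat
Fgb promoter, chr2:170700826-170701125 (- strand): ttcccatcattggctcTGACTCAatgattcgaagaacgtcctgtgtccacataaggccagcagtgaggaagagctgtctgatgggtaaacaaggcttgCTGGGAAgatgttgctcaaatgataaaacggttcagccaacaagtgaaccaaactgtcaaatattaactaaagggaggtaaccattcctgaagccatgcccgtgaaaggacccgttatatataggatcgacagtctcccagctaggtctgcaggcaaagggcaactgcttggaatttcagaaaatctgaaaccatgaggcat
Fgg promoter, chr2:170652833-170653132 (+ strand): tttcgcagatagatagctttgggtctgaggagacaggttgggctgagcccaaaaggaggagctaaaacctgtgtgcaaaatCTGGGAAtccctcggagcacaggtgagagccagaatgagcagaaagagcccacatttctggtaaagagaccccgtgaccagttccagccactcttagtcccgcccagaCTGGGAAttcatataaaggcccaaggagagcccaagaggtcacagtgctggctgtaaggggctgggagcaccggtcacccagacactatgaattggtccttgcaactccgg
Plg promoter, chr1:50915357-50915656 (- strand): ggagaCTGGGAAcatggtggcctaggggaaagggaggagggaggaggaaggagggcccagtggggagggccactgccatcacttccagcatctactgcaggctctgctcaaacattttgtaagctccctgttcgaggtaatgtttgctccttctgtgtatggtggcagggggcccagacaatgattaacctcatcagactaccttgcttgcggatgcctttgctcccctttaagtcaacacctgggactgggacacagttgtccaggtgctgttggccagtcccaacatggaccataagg
Plau promoter, chr15:3511938-3512237 (- strand): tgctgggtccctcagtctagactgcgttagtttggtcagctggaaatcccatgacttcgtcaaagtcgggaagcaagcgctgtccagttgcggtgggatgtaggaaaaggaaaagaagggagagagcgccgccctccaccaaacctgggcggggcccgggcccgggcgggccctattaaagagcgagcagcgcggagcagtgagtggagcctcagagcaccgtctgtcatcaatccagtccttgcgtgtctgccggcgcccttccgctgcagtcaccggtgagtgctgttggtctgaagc
The marked motifs do not overlap one another. Counted from the gene start, the IL-6 motif was at -152 to -146 in Fgb, at a pair of places in Fgg (-169 to -163 and -61 to -55) and at -245 to -239 in Plg. AP-1 matched in Fgb (-234 to -228) and in Plaur (-83 to -77). The Fga, F13b, Plau and Serpinf2 windows held neither letter string. Among 27457 rat promoter windows of the same length, 10.9% held CTGGGAA and 7.33% held TGANTCA, so neither is rare, and a match describes letters and not a bound site. The promoter of Plat is not shown.

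Plasminogen was lower on every fibrosis array, and its test came nearest to the threshold among the hepatocyte genes of the set. Plg had levels of 3.24, 3.80 and 3.36 on the fibrosis arrays, against 4.17, 4.19 and 4.28 on the normal arrays. The normal livers were nearly alike (SD 0.06, n = 3), and the fibrotic livers varied more (SD 0.29, n = 3). The array carries 10 spots of this probe, whose SD within an array was 0.10 to 0.22. Of its 30 spots in each group, 12 on the fibrosis arrays and 18 on the normal arrays were marked as non-uniform or outlying. The log2 difference was -0.75 ± 0.25, with a 95% interval of -1.31 to -0.18 (limma adjusted p = 0.0698), a 1.68-fold difference. The groups did not overlap before scaling either, at signals of 60673, 67413.5 and 52547.5 on the fibrosis arrays, against 70397, 80319 and 73078 on the normal arrays. Plg was called lower in 4 alternatives and not in the other 15. It was called without fibrosis array 2 (-0.91, limma adjusted p = 0.0334) and with array weights (-0.92, limma adjusted p = 0.00376). It was also called with trend and robust settings (limma adjusted p = 0.0185) and with the array median (-1.07, limma adjusted p = 0.0164). The difference was -0.24 with cyclic loess, -0.26 with quantile normalization, -0.44 relative to the E1A controls and -0.68 without marked spots.

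Serpinf2, the main inhibitor of free plasmin, overlapped between the groups. Its levels were 2.95, 3.41 and 3.76 on the fibrosis arrays, against 3.81, 3.71 and 3.34 on the normal arrays. Fibrosis array 3 was within the range of the normal livers and fibrosis array 1 was the lowest of all 6. All 6 Serpinf2 spots on the fibrosis arrays and 4 of 6 on the normal arrays were marked as non-uniform or outlying. The log2 difference was -0.25 ± 0.29, with an interval of -0.91 to 0.41 (limma adjusted p = 0.598), and the sign turned under 3 of the 4 other scales (0.19 after quantile normalization, 0.22 after cyclic loess, 0.0581 relative to the E1A controls).

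Plat, a secreted protease that activates plasminogen best when both are bound to fibrin, had the largest difference of the set. Its levels were 1.86, 1.68 and 0.37 on the fibrosis arrays, against -2.66, -2.16 and -2.92 on the normal arrays. The groups were far apart, with 2.53 log2 units between the lowest fibrotic and the highest normal liver, and fibrosis array 3 was the lowest of the fibrotic livers. In processed signal these were 23206, 15472.5 and 6596 on the fibrosis arrays, against 620, 979 and 496 on the normal arrays. The log2 difference was 3.88 ± 0.42, with a 95% interval of 2.91 to 4.85 (limma adjusted p = 0.000589). It stayed called in all 18 alternatives that tested it, between 3.56 and 4.44. All 6 spots on the fibrosis arrays and 4 of 6 on the normal arrays were marked by the scanner software as non-uniform or outlying, and Plat was not tested when marked spots were left out.

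Plau, the protease that activates plasminogen at cell surfaces when bound to its receptor, was low in normal liver and higher in fibrosis. Its levels were -2.26, -2.86 and -2.41 on the fibrosis arrays, against -5.0, -3.81 and -4.60 on the normal arrays. All 6 arrays were well above background, and the groups did not overlap, with 0.95 log2 units between the nearest arrays. The log2 difference was 1.96 ± 0.35, with an interval of 1.16 to 2.76 (limma adjusted p = 0.00621). The difference was 1.80 without marked spots (limma adjusted p = 0.00946), and with the row of the slide as a block it was 2.21 and the call was lost (limma adjusted p = 0.0548).

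Plaur, the membrane-anchored receptor that holds urokinase at the cell surface, gave opposite pictures from its 2 probes, which carry the same accession. The brighter probe had levels of -0.66, -1.10 and -1.70 on the fibrosis arrays, against -0.45, -0.81 and -0.28 on the normal arrays. These groups overlapped, and the log2 difference was -0.64 ± 0.32 with an interval of -1.37 to 0.09 (limma adjusted p = 0.210). The dimmer probe had levels of -5.10, -5.85 and -4.15 on the fibrosis arrays, against -7.63, -7.02 and -6.66 on the normal arrays. It was well above background on all 3 fibrosis arrays and on 0 normal arrays, so its rise is a lower bound, at least 3.90-fold (limma adjusted p = 0.0153). It entered the test only through the fibrosis arrays. All spots of the brighter probe, 6 in each group, were marked, and none of the dimmer probe were. The rise of the dimmer probe was 0.70 on the log2 scale and not called with normexp background correction (limma adjusted p = 0.147), below the bound given. It was also not called without normal array 1 (1.81, limma adjusted p = 0.0584), without normal array 2 (2.11, limma adjusted p = 0.0506), with quantile normalization (1.67, limma adjusted p = 0.0616) or with the slide row as a block (2.00, limma adjusted p = 0.167). A direction for Plaur is therefore not given.

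**Figure D2:**
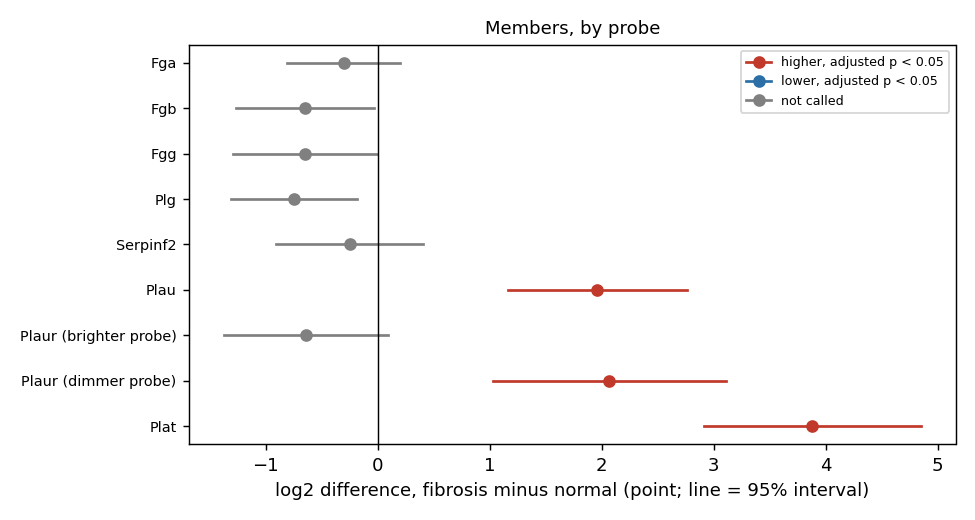
Log2 difference, fibrosis minus normal (x axis), of each member probe, with its 95% interval; red marks probes called higher and grey those not called. Plat and Plau lie at 3.88 and 1.96, and the 2 Plaur probes lie on opposite sides of 0.

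Differences between partners were also compared within arrays, where the scale of the array drops out. For the 6 pairs compared, the exact two-sided permutation test over 3 against 3 arrays cannot go below p = 0.10. The change of Plau was smaller than that of Plat by 1.92 log2 units, with the Plau minus Plat value, relative to its normal mean, at -2.23, -2.65 and -0.88 on the fibrosis arrays, against -0.45, 0.24 and 0.21 on the normal arrays (exact p = 0.10, adjusted 0.24). The change of Plau exceeded that of the brighter Plaur probe by 2.60 (exact permutation p = 0.10, adjusted 0.24). These differences of Plau from Plat and from Plaur both reached the smallest p the design allows and fail the adjustment. The dimmer Plaur probe was not compared in this way. It rose by 2.07, beside 1.96 for Plau, so the 2.60 holds for the brighter probe only. Fgb and Fgg changed alike to within 0.0011 on average, with values of -0.52, 0.21 and 0.32 on the fibrosis arrays, against -0.09, -0.11 and 0.20 on the normal arrays (exact permutation p = 1). Fga lay 0.35 above each of them and Plg 0.50 below Serpinf2 (exact permutation p = 0.20 for each of these 3, adjusted 0.24).

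Markers of the cells in the tissue moved beside these genes. For the counts of called markers here and in the next paragraph, the shares over all probes were 12.4% higher and 6.79% lower. All 10 hepatocyte markers had negative differences, at a median of -0.67, but only Apoc3 was called lower (-1.05, limma adjusted p = 0.0140) and 0 were called higher, while at an unadjusted p under 0.05 the numbers were 5 and 0. Tf (transferrin) had the largest difference at -1.07 and did not pass (limma adjusted p = 0.278). The summed level of the 10, as a multiple of each array's 75th percentile, was 105 to 135 on the fibrosis arrays, against 185 to 199 on the normal arrays. Set against the mean of the 10 markers within each array, a comparison chosen after the data were seen, Plg differed by -0.0041, Fgb and Fgg by 0.10 each, Fga by 0.44 and Serpinf2 by 0.49. Relative to the marker mean the groups overlapped for Plg, Fgb, Fgg and Serpinf2, and Fga was higher on every fibrosis array. Plat and Plau were then 4.62 and 2.7 higher, without overlap.

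Among other cell types, 7 of 8 cholangiocyte markers tested were called higher, led by Krt7 (a bile duct keratin, above background on 1 normal array) at 5.65 and Sctr (the secretin receptor) at 5.47, and their summed level was 8.79 to 10.2 on the fibrosis arrays, against 0.589 to 0.778 on the normal arrays. For stellate cells and myofibroblasts 5 of 8 were higher, led by Col1a1 at 3.19 and Des at 3.01, with sums of 9.07 to 23.2 on the fibrosis arrays, against 2.63 to 3.89 on the normal arrays. Neutrophil markers were higher in 3 of 4, led by S100a8 and S100a9 (2.98 and 2.97), with sums of 0.752 to 3.06 on the fibrosis arrays, against 0.199 to 0.360 on the normal arrays. Of 3 mesothelial markers 2 were higher, Msln (above background on 1 normal array) at 7.98 and Krt19, also a duct marker, at 3.49. The other, Wt1, was at -0.51 and was not called (limma adjusted p = 0.430). Mesothelial sums were 3.90 to 5.66 on the fibrosis arrays, against 0.229 to 0.303 on the normal arrays. Monocyte and macrophage markers had positive differences in 9 of 10 and a negative one in 1, at a median of 0.64. Only Itgam (2.14) was called higher and only Cd14 (-1.33) lower, while at an unadjusted p under 0.05 the numbers were 4 and 1. Marco, at 1.60, was not called (limma adjusted p = 0.0863). Monocyte and macrophage sums were 25.7 to 28.2 on the fibrosis arrays, against 18.6 to 22.5 on the normal arrays. Of 4 platelet markers Pf4 was higher (1.02), with sums of 0.605 to 0.708 on the fibrosis arrays, against 0.312 to 0.438 on the normal arrays. Endothelial cells are best known for making Plat, and 0 of their 5 tested markers were called by limma. At an unadjusted p under 0.05, 0 were higher and 1 lower. Differences were positive for 2, Cdh5 (0.33) and Pecam1 (0.19), and negative for 3. The largest were Kdr (-0.75) and Tek (-0.64, above background on 1 fibrosis array). Endothelial sums were 7.15 to 10.3 on the fibrosis arrays, against 11.55 to 12.5 on the normal arrays. The part of these cell types in the values of Plat, Plau or the hepatocyte genes was not tested.

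Other genes of the plasminogen system moved in both directions. Of 16 regulators and receptors of the plasminogen system tested among 18 listed, 6 were called higher and 3 lower and 7 were not called, at a median of 0.30, beside 12.4% higher and 6.79% lower over all probes. A2m, a broad protease trap that also takes up plasmin, was higher by 3.86 ± 0.31 (limma adjusted p = 0.000142). The plasminogen-binding pair Anxa2 and S100a10 rose by 2.84 and 2.00. Mrc2, the urokinase receptor-associated collagen receptor, is among the 6 called higher, but it was not well above background in the normal livers. It entered the test only through the fibrosis arrays. The bound on its rise was 3.61-fold, but with normexp the difference was 0.79 on the log2 scale, under that bound, and still called. Serpine2, an inhibitor of the activators, was higher by 1.70 (limma adjusted p = 0.0337), and that call was lost when any 1 array other than fibrosis array 3 was left out (1.30 to 1.84, limma adjusted p = 0.0689 to 0.134).

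The 3 called lower were hepatocyte products: Klkb1 (plasma prekallikrein) at -0.88, Vtn (vitronectin, a plasma and matrix adhesion protein) at -0.88 and Hrg (a plasminogen-binding plasma protein) at -0.78, with limma adjusted p of 0.0492, 0.0473 and 0.0396. These calls were thin. Without fibrosis array 1 or any 1 normal array 0 of the regulators were called lower, without fibrosis array 3 it was 1, and 0 were lower on the quantile, cyclic loess or E1A scale. Cpb2, the enzyme that protects fibrin from plasmin, had a difference of -0.73 ± 0.30 that did not pass (limma adjusted p = 0.130). Eno1 was at -0.0062 and Lrp1, the clearance receptor for activators bound to inhibitors, at -0.31. Serpinb2, an inhibitor of urokinase, stayed near background on all 6 arrays and was not tested.

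**Figure D3:**
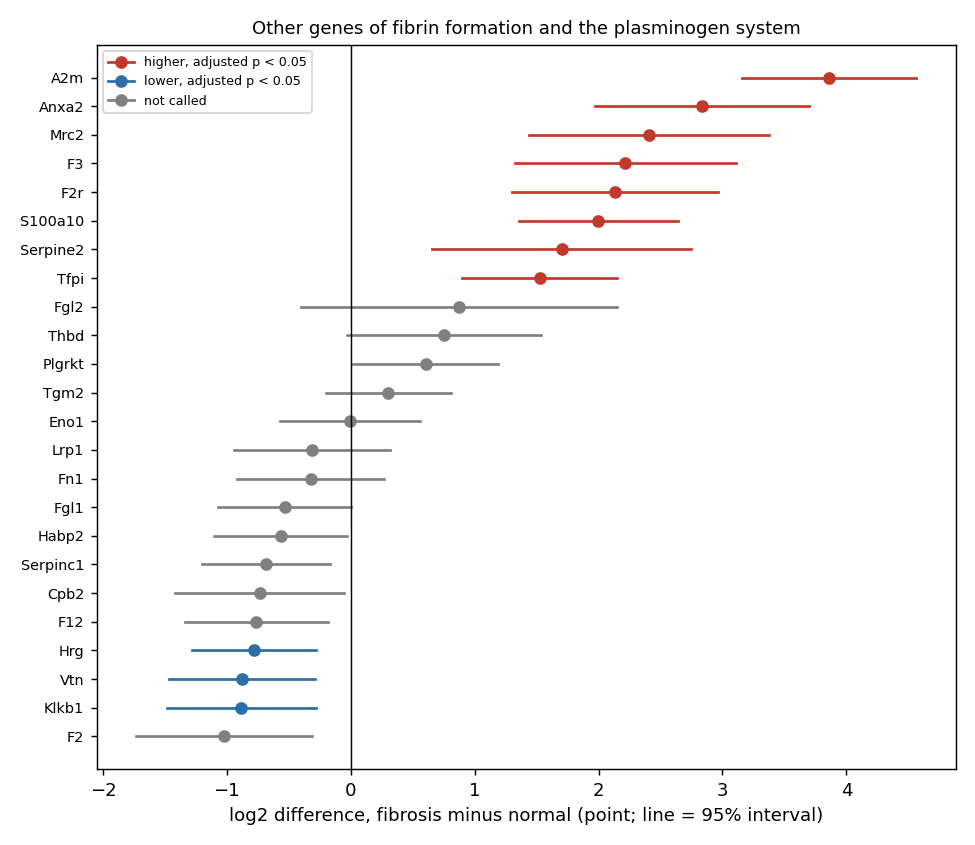
Log2 difference, fibrosis minus normal (x axis), with its 95% interval, of tested genes from the lists of plasminogen regulators and of thrombin, crosslinking and fibrinogen-related proteins; red is called higher, blue called lower, grey not called. Of the genes shown, A2m and Anxa2 lead at 3.86 and 2.84, and those below 0 lie no lower than -1.02.

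On the clot-forming side, 3 of 9 tested genes were called higher and 0 lower by limma, beside 12.4% and 6.79% over all probes. Their median was 0.30, and at an unadjusted p under 0.05 the numbers were 3 and 2. F3 (tissue factor, which starts coagulation) rose by 2.22 ± 0.39 (limma adjusted p = 0.00593), F2r (the thrombin receptor PAR1) by 2.13 ± 0.36 (limma adjusted p = 0.00515) and Tfpi (the inhibitor of tissue factor) by 1.53 ± 0.27 (limma adjusted p = 0.00637). F3 and Tfpi were not called with the slide row as a block (2.39 and 1.71, limma adjusted p = 0.0653 and 0.0546). F2, prothrombin, had levels of 3.78, 4.31 and 3.22 on the fibrosis arrays, against 4.86, 4.84 and 4.68 on the normal arrays, a difference of -1.02 ± 0.31 just outside the threshold (limma adjusted p = 0.0527). It was called in 6 of 18 alternatives, among them the one without fibrosis array 2 (-1.29, limma adjusted p = 0.0191). Fgl1, a fibrinogen-like hepatocyte protein, stood at -0.53 and Fn1, fibronectin, at -0.32, and neither passed. F13a1, the catalytic subunit of factor XIII, stayed near background on all 6 arrays and was not tested.

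Fibrinogen genes belong to the acute phase genes that IL-6 acts on through STAT3. A2m, at 3.86, was counted above among the plasminogen regulators and not here. The list of other genes of that response went both ways. Of its 11 tested genes, 1 was called higher and 1 lower, at a median of -0.41, beside 12.4% and 6.79% called over all probes. Stat3 itself was at 0.84 ± 0.25 and just missed the threshold (limma adjusted p = 0.0533), and it was called higher in 6 of 18 alternatives, among them the quantile, cyclic loess and E1A scales (0.91 to 1.15), which brought the number called higher to 2. Lbp (the lipopolysaccharide-binding protein) rose by 1.91 ± 0.24 (limma adjusted p = 0.00133), and Crp (C-reactive protein) was lower at -2.13 ± 0.43 (limma adjusted p = 0.0115), a call lost without normal array 2 (-1.95, limma adjusted p = 0.0512) and with the slide row as a block. Hp (haptoglobin) at -0.50 and Orm1 at 0.06 did not pass. Il6 was above background on 2 fibrosis arrays and 0 normal arrays and so was not tested. Among 9 hepatocyte transcription factors tested, Cebpa (C/EBP alpha) was lower at -1.89 ± 0.27 (limma adjusted p = 0.00222). Limma called 0 higher and 1 lower, beside 12.4% and 6.79% over all probes (1 and 1 at an unadjusted p under 0.05). Without fibrosis array 3 the numbers were 1 higher and 3 lower.

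As a description over 6 arrays that fall into 2 groups, the genes whose profile was most like that of Plau among 10863 candidates were Tspan15, Gas8, Csrp1, Prss30 and Procr, with Pearson correlations of 0.997, 0.997, 0.996, 0.995 and 0.995. Procr encodes the endothelial protein C receptor. A profile was sought for fibrinogen chains that were called, and there were none.

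Plau and Plat kept their direction under every alternative that tested them, and Fga and Serpinf2 changed sign with the scale. Plau ranged from 1.55 to 2.29 and Plat from 3.56 to 4.44. Fgb ranged from -0.96 to -0.13, Fgg from -0.97 to -0.09 and Fga from -0.62 to 0.24.

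**Figure D4:**
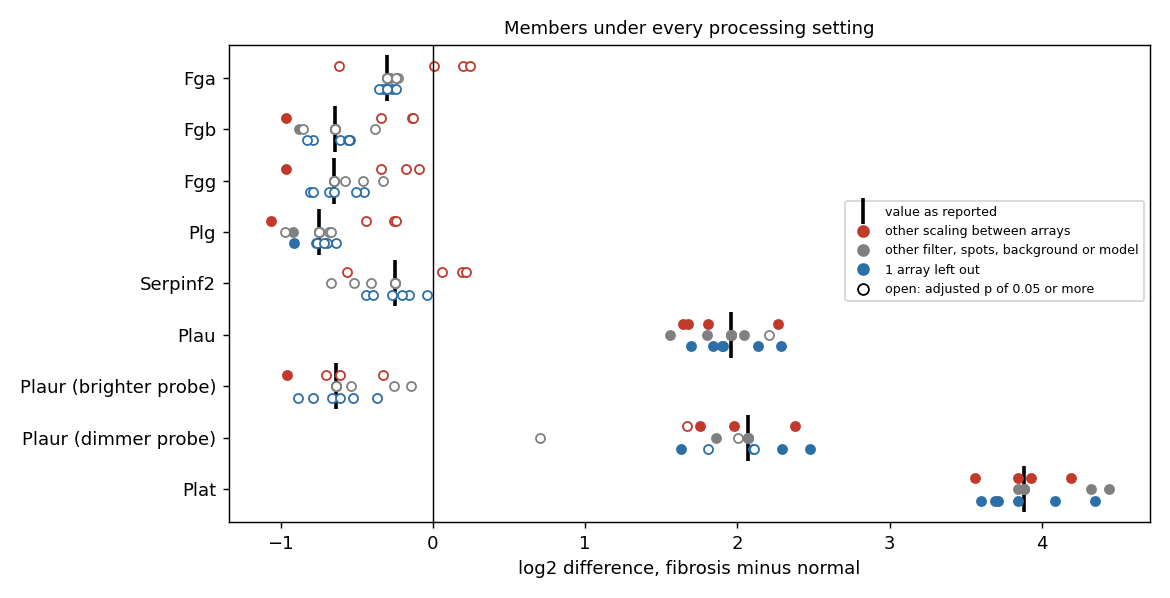
Log2 difference, fibrosis minus normal (x axis), of each member probe as reported (black bar) and under each alternative: another scale between arrays (red), another filter, spot, background or model setting (grey) and 1 array left out (blue); open points have an adjusted p of 0.05 or more. Plat is called in every setting that tested it and Plau in all but the slide row block, while Fga and Serpinf2 cross 0 when the scale changes.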

How the data were processed

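RNA of 3 fibrotic and 3 normal rat livers was hybridised in 1 colour (Cy3) to Agilent arrays, per the protocols in the labels. Spot intensity was deposited as written by Agilent Feature Extraction 11.5.1.1, with background subtracted and trends across the array removed in the processed signal, per the file headers, and with no normalization between arrays recorded there. The array design was drawn on the rn4 build, so probes and genes have no coordinates here; promoter windows and the order of genes are those of RefSeq GRCr8.

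Control spots were left out and spots marked as non-uniform or outlying were kept; 0 spots were saturated. Log2 processed signals minus the array's 75th percentile were averaged over the spots of a probe. Accessions, without versions, named 18355 of 30367 probes through the RefSeq gene table. A probe was tested if at least 0.5 of its spots were well above background on all arrays of 1 group. Groups were compared with limma 3.58.1 (R 4.3.3) over all 19731 such probes, with Benjamini-Hochberg adjustment at 0.05; the fit was tested on simulated data. A bound sets the bright group's mean against, per dim array, the higher of the probe's value and the lowest signal well above background.

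For other genes the probe with the highest mean stood for the gene. Every member is named, with up to 2 called genes in each direction from each pathway list and 2 by size from each cell type list; others were named after their values were seen. Members and lists were chosen with earlier results of these data known. There were 19 alternatives, on spots, scale, background, filter, variance model, probes, threshold, slide row and arrays left out. Normexp (offset 50) used median signals, since the files hold no mean signal column. Results for some listed genes are not reported here.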

Additional observations from a re-analysis of the deposited data

How the results depend on the processing

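No paired analysis was possible because the replicate numbers only follow the order of the records. The number of member genes called higher stayed at 2 in all alternatives except the slide row as a block, where it was 1; without marked spots the 2 were Plau and the dimmer Plaur probe, since Plat, the fibrinogen chains and Serpinf2 were then not tested. The number called lower was 0, but 4 with the array median (Fgb, Fgg, Plg and the brighter Plaur probe), 2 with array weights (Fgb and Plg) and 1 with trend and robust settings (Plg); leaving out 1 array gave 0 to 1. The sign turned for Fga and Serpinf2 on the quantile scale (0.20 and 0.19), after cyclic loess (0.24 and 0.22) and relative to E1A controls (0.0079 and 0.0581). The median difference of all probes was -0.10, against -0.41 on the array median and 0.21 on the E1A scale; changes are relative to it. Over all probes 2439 were higher and 1339 lower. The lower numbered 610 without marked spots, 3505 with the array median, 357 with E1A scaling, 799 with no filter, 3580 with array weights, 385 at an adjusted p under 0.01 and 178 with the slide row; the higher numbered 1422 at 0.01 and 1020 with the slide row. With 1 array left out, the higher numbered 1514 to 2851 and the lower 450 to 1620. The causes of these moves were not tested, apart from fewer probes without marked spots and fewer arrays in those left out. The slide row block compares only fibrosis array 1 with the normal arrays. Among the called pathway genes no direction turned; calls were lost in 13 alternatives for Vtn, 12 for Klkb1, 10 for Hrg and 9 for Serpine2, and in 0 for A2m, Anxa2, F2r, Mrc2, Lbp and Cebpa.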

Other observations

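Fap, a surface protease of activated fibroblasts that trims alpha-2-antiplasmin in humans, was above background on 2 fibrosis arrays and 0 normal arrays and so was not tested. Its levels were -6.0, -3.10 and -7.09 on the fibrosis arrays, against -7.32, -8.03 and -8.0 on the normal arrays. Fibrosis array 2 was the highest, and it also had the largest sum of stellate cell and myofibroblast markers, at 23.2, against 13.8 and 9.07 on the other fibrosis arrays. Il6, the cytokine that drives fibrinogen synthesis, had levels of -6.01, -7.32 and -4.59 on the fibrosis arrays, against -8.42, -8.30 and -8.06 on the normal arrays, and was highest on fibrosis array 3. It was above background on 2 fibrosis arrays and 0 normal arrays, so the lower values have no sure order.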
